A study of Mus musculus with 365 samples.

Results

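Progenitor cells of the bone marrow that carried Ly6D, a surface protein of lymphoid progenitors with B cell potential, were divided by their own reads of Ebf1, the gene of early B-cell factor 1. A cell was called Ebf1-positive at an Ebf1 CPM (reads of the gene scaled to a common total of gene reads per cell) of 25 or more and Ebf1-negative below that value. Of 152 Ly6D+ cells, 64 (42.1%) were Ebf1-positive and 88 (57.9%) were Ebf1-negative, out of 365 cells in the data set. The members were thus chosen by measured Ebf1, and Ebf1 itself is no result of the comparison. All groups came from femoral bone marrow of C57BL/6 Flt3Ltg mice, in pools of 2, so every cell, the Ebf1-negative ones included, comes from an animal with a transgene for Flt3 ligand, which drives the expansion of lymphoid and dendritic precursors. The labels give neither the age of the mice nor the promoter of the transgene. The Ly6D+ cells were captured on chips 4, 5 and 6, and 213 TN (triple negative) cells of the same compartment, EPLM (early bone marrow progenitors able to form lymphoid and myeloid cells), on chips 1, 2 and 3. The TN cells stand beside the results as a second set of values. No chip held both sets, so a difference between Ly6D+ and TN cells cannot be told apart from one between chips. Chips 4, 5 and 6 held 18, 22 and 24 Ebf1-positive cells and 22, 38 and 28 Ebf1-negative cells. Ly6d transcript, the marker of the sort, was detected in 96.8% ± 2.9 of Ebf1-positive and 94.7% ± 9.1 of Ebf1-negative cells, with 14.6% ± 2.3 of TN cells (SD over 3 chips each).

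Ebf1 is a DNA-binding factor of the B lineage that acts as a dimer and binds a palindromic sequence. It is known to activate genes of the pre-B-cell receptor, the complex with which a developing B cell tests its immunoglobulin heavy chain. In that complex Igll1, Vpreb1 and Vpreb2 encode the surrogate light chain, and Cd79a and Cd79b encode the signalling chains. Ebf1 acts with E2A and Foxo1 before Pax5 completes commitment to the lineage. Recombination of the antigen receptor genes, by the Rag1 and Rag2 recombinase with Dntt adding bases at the joints, begins in the same early stages.

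Upstream sequences are shown for 3 B-lineage genes that stood higher in the Ebf1-positive cells. They let a reader see where the palindromic core does and does not occur. Each is the 250 bases before the gene's start in RefSeq, 5′ to 3′ on the gene's strand, in assembly GRCm38.p6: Cd79a at chr7:24897247-24897496 (plus strand), Igll1 at chr16:16863986-16864235 (minus strand) and Vpreb3 at chr10:75948050-75948299 (plus strand). Capitals mark matches, on either strand, to the core CCCNNGGG or to the form TCCCNNGAG.
Cd79a: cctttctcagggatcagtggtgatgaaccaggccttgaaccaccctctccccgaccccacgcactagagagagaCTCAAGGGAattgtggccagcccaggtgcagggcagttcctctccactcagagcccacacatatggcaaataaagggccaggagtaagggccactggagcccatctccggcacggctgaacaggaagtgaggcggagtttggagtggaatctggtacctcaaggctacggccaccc
Igll1: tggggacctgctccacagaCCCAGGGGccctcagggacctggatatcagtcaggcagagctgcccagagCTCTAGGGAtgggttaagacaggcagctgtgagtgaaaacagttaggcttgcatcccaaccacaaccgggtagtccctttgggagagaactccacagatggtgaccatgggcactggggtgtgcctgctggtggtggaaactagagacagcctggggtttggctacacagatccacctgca
Vpreb3: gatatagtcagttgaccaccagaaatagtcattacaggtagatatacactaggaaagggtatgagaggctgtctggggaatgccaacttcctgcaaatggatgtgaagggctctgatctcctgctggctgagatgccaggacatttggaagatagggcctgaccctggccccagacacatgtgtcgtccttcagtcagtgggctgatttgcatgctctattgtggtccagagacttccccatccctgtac
The second form was taken from the Cd79a promoter itself, so its match there, CTCAAGGGA on the printed strand at chr7:24897321-24897329, follows from the choice. Igll1 holds a match to each form, CTCTAGGGA at chr16:16864158-16864166 and CCCAGGGG at chr16:16864209-16864216, and the Vpreb3 window holds none. Over all 32851 RefSeq windows of this length, 11.8% held the core and 5.98% the second form, so that a match by itself is common. The matches describe letters and not binding.

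The 6 sums of cells, 1 for each side of each chip, held between 15570426 and 36148542 gene reads. Depth per cell was alike on both sides, with means of 865024, 1025320 and 918936 reads in Ebf1-positive cells of chips 4, 5 and 6, and 916554, 951277 and 904378 reads in Ebf1-negative cells. A gene was called detected in a cell at 5 or more reads after each cell was thinned to 200000 reads. Ebf1-positive cells held 2637, 2505 and 2619 detected genes and Ebf1-negative cells 2991, 2404 and 2929 (exact two-sided sign-flip permutation p over 3 chips = 0.5, where 0.25 is the smallest this design allows). Chip 5 stood apart: all 7 Ly6D+ cells with fewer than 1500 detected genes, 2 Ebf1-positive and 5 Ebf1-negative, were on it. No 2 cells held identical counts and no cell name occurred more than once.

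Low Ebf1 values were graded on both sides of the limit, with no clear break at it. The 3 cells nearest above it held 27.6, 32.3 and 35.1 CPM and the 3 nearest below held 18, 15.4 and 11.3 CPM. The median of the Ebf1-positive cells was 792, 528 and 423 CPM on chips 4, 5 and 6, and their highest cell held 3949 CPM. Of the 88 Ebf1-negative cells, 78 held no Ebf1 read and 10 held some. An Ebf1-negative cell is thus one whose library held few or no Ebf1 reads, and whether such cells lack the transcript was not tested.

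**Figure D1:**
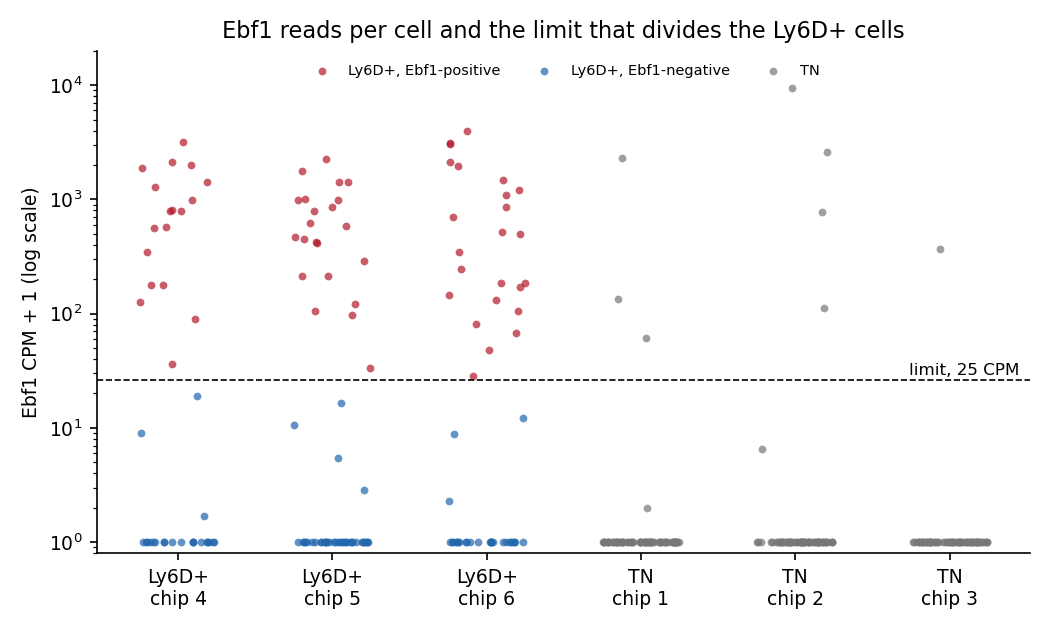
Ebf1 CPM in each cell, plus 1, on a log axis, for Ly6D+ chips 4, 5 and 6 and TN chips 1, 2 and 3, with 1 point for each cell and points spread sideways for visibility. The dashed line is the 25 CPM limit, and 64 Ly6D+ cells and 8 TN cells lie above it.

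The main test called no gene. By limma-trend, an alternative test, Ebf1-positive cells held more transcript of Igll1, Cd79a and Cd79b of the pre-B-cell receptor. They also held more of Vpreb3, the signalling adaptor Blnk and Rag1, and less of Irf8 and Runx2, factors of the dendritic lineages. Vpreb1 and Rag2 stood higher on all 3 chips but were not called (limma adjusted p = 0.212 for each). No gene passed the main test, edgeR's quasi-likelihood test on the 6 chip sums, paired by chip, among 10653 genes tested without Ebf1 (0% called), and 461 had an unadjusted p under 0.05. On the mean over cells of log2(CPM + 1) per chip, limma-trend called 15 genes (0.141% of those tested), with 13 higher and 2 lower in Ebf1-positive cells. DESeq2 on the sums called 415 of 10446 genes (3.97%), with 46.5% of them higher in Ebf1-positive cells, and these included 14 of the 15. The limma calls were Dntt, Cd79b, Igll1, Blnk, Cecr2, Mzb1, Cd79a, Sdc4, Rsph9, Rag1, Vpreb3, Gimap4 and Gfra2, which rose, and Irf8 and Runx2, which fell. Their chip values did not overlap between the sides, which holds for 5.19% of all tested genes as higher and 6.34% as lower in Ebf1-positive cells. Limma-trend called 14 genes without chip 4, of which 8 are among the 15, none without chip 5 (1012 genes at an unadjusted p under 0.05) and 2 without chip 6, while all 15 kept their direction under each of these. In what follows, "called", "rose" and "fell" refer to limma-trend at an adjusted p under 0.05. This use was not planned, and limma-trend was an alternative to edgeR. A difference on the log2(CPM + 1) scale is Ebf1-positive minus Ebf1-negative with its SE. Cd79b, Mzb1, Gimap4, Sdc4, Rsph9 and Gfra2, and the list members that were not always to be named, were chosen after their values were seen.

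Among the pre-B-cell receptor chains and signalling genes, 5 of 20 tested members rose, none fell, and 14 stood higher on every Ebf1-positive sum than on any Ebf1-negative sum (none lower). Over all tested genes 5.19% stood higher in this way. Igll1 and Vpreb3 met the filter on low counts through their Ebf1-positive sums, so they could hardly count as lower. The median difference of the 20 genes was 1.24 on the log2(CPM + 1) scale, beside −0.12 over all tested genes. Cd79a, the signalling chain Ig-alpha, had 741, 852 and 773 CPM in Ebf1-positive cells of chips 4, 5 and 6, against 82.4, 305 and 32.8 CPM in Ebf1-negative cells. The positive sums lay close together and the negative ones varied, with chip 5 the highest. The ratio of the mean CPM was 5.63, and the difference was 4.09 ± 0.67 on the log2(CPM + 1) scale (limma adjusted p = 0.0049; edgeR unadjusted p = 0.0027, adjusted p = 0.998). Cd79b, the partner chain Ig-beta, had 658, 1371 and 1065 CPM in Ebf1-positive cells, against 43.9, 524 and 111.2 CPM in Ebf1-negative cells (difference 3.57 ± 0.58, limma adjusted p = 0.0049). Its share of TN cells, 32.4% ± 3.6 (SD, n = 3 chips), was close to that of the Ebf1-negative cells, 25.1% ± 13.9, whereas Cd79a was detected in 1.45% ± 2.51 of TN cells.

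The surrogate light chain genes and Vpreb3 stood near 0 in the Ebf1-negative sums of chips 4 and 6 but not in that of chip 5. Igll1, which encodes lambda-5, had 619.7, 446 and 479 CPM in Ebf1-positive cells, against 0, 301 and 0 CPM in Ebf1-negative cells. It was detected in 33.3%, 22.7% and 29.2% of Ebf1-positive cells, against 0%, 5.26% and 0% of Ebf1-negative cells (difference 2.72 ± 0.50, limma adjusted p = 0.014). Vpreb3 had 325, 339 and 370.2 CPM in Ebf1-positive cells, against 0, 129.96 and 2.8 CPM in Ebf1-negative cells (difference 2.52 ± 0.49, limma adjusted p = 0.0196). Vpreb1, which encodes the variable-like part of the surrogate light chain, was not called, with 214, 111.6 and 162.9 CPM in Ebf1-positive cells, against 7.4, 84 and 4.9 CPM in Ebf1-negative cells. Both sides of chip 5 were close for Vpreb1, and its near-identical copy Vpreb2 had 174.4, 54.9 and 102.5 CPM in Ebf1-positive cells, against 7.1, 37.3 and 1.3 CPM in Ebf1-negative cells, with reads of the pair uncertain between them. Fitted fold changes of Igll1 and Vpreb3 are not given because Ebf1-negative sums stood at 0.

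The signalling adaptor Blnk, which links the receptor to its kinases, had 850.1, 844 and 714 CPM in Ebf1-positive cells, against 321, 235 and 44.8 CPM in Ebf1-negative cells. It was detected in 75.2% ± 2.5 of Ebf1-positive, 42.6% ± 25.5 of Ebf1-negative cells, with 8.39% ± 1.97 of TN cells (SD over 3 chips), and it rose by limma (difference 3.30 ± 0.61, adjusted p = 0.014). Mzb1, an endoplasmic reticulum chaperone of B-lineage cells and plasmacytoid dendritic cells, was detected in 73.4% ± 12.7 of Ebf1-positive cells, against 28% ± 3.3 of Ebf1-negative cells, and rose (difference 3.42 ± 0.62, limma adjusted p = 0.014). The kinase gene Syk and the surface gene Cd24a did not overlap between the sides, with ratios of the mean CPM of 2.36 and 2.01, while their detection shares were alike (54.5% of Ebf1-positive and 50.9% of Ebf1-negative cells for Syk, 79.3% and 73.6% for Cd24a).

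**Figure D2:**
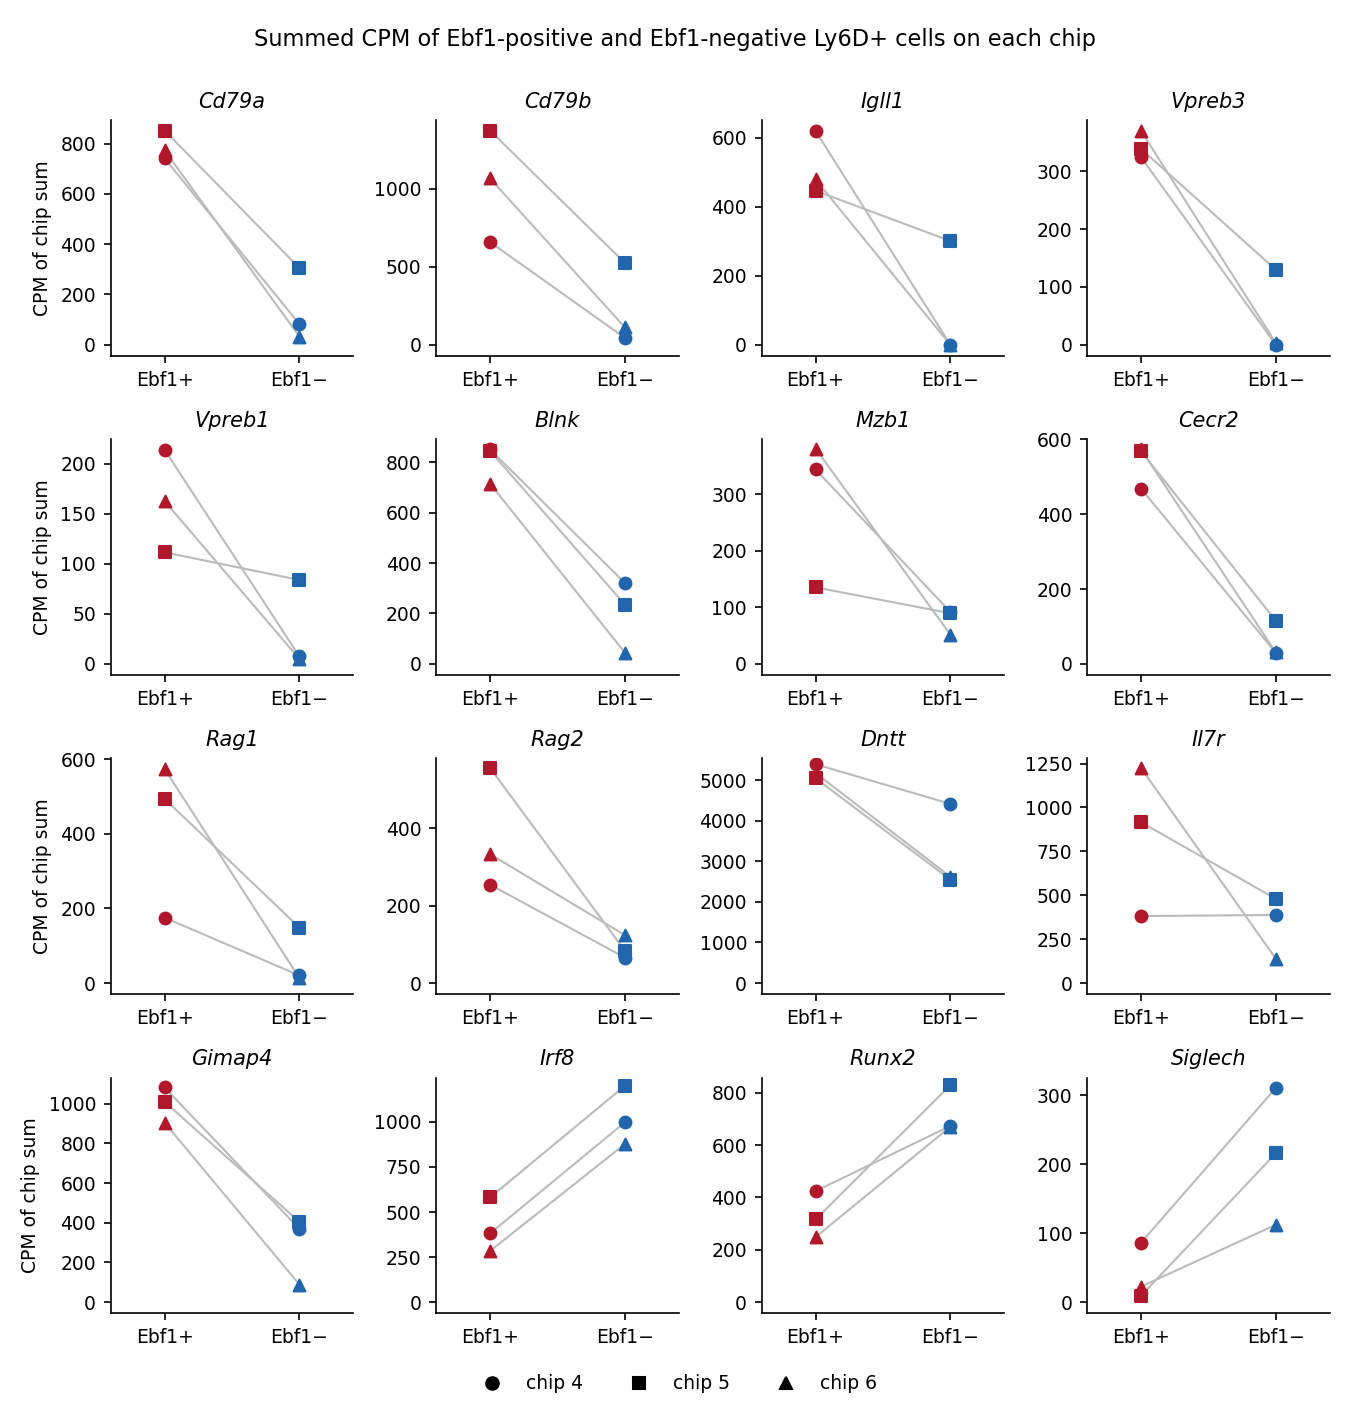
CPM of the summed reads of Ebf1-positive (left, red) and Ebf1-negative (right, blue) Ly6D+ cells for 16 genes, with 1 symbol for each chip and grey lines joining the 2 sides of a chip. The groups do not overlap for any gene shown but Il7r. Chip 5 (squares) holds the highest Ebf1-negative value for Cd79a, Cd79b, Igll1, Vpreb3, Vpreb1, Cecr2 and Rag1, and also for Gimap4, Il7r, Irf8 and Runx2.

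Genes reported elsewhere as activated by Ebf1 were, as a list, the set with the largest median difference of the 22 lists, 1.95 on the log2(CPM + 1) scale over 15 tested members. Of these 15, 5 rose (Cd79a, Cd79b, Igll1, Vpreb3 and Blnk, which the signalling list also holds), none fell, and 10 had no overlap, all of them higher (5.19% over all tested genes). Igll1, Vpreb3, Lef1 and Pou2af1 met the filter on low counts through their Ebf1-positive sums. Their Ebf1-negative sums were near 0 on chips 4 and 6. Such members could hardly count as lower, so these counts and the median are description only. A cell held 5.56, 5.00 and 6.92 detected members of the 16 in the table in Ebf1-positive cells of chips 4, 5 and 6, against 2.73, 2.97 and 1.75 in Ebf1-negative cells. The mean difference was 3.34 ± 1.63 members (SD, n = 3 chips, exact two-sided sign-flip permutation p = 0.25, the smallest possible). The range among Ebf1-positive cells was wide, from 0 to 13 members, with 22 of 64 cells at 8 or more, against 3 of 88 Ebf1-negative cells (34.4%, exact Clopper-Pearson 95% interval 22.9 to 47.3, against 3.41%, 0.709 to 9.64, intervals that cover counting error only). Members were not absent from the other cells, since 78 of the 88 Ebf1-negative cells held at least 1 member, as did 59.6% of the 213 TN cells. Myl4, a myosin light chain on this list, was detected in 55.6%, 63.6% and 95.8% of Ebf1-positive cells, against 40.9%, 42.1% and 35.7% of Ebf1-negative cells. Its CPM overlapped between the sides and it was not called (limma adjusted p = 0.256).

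Transcription factors of the B lineage other than Ebf1 showed no call among 16 tested members, with 4 higher and 1 lower without overlap and a median difference of 0.35. Over all tested genes 5.19% stood higher and 6.34% lower without overlap. Lef1, a factor of the Wnt pathway that is used by pro-B cells, had 21, 65.8 and 66.2 CPM in Ebf1-positive cells, against 0, 14 and 0.1 CPM in Ebf1-negative cells. Pou2af1, the octamer co-activator OBF-1, had 36.7, 219 and 30.4 CPM in Ebf1-positive cells, against 0, 4.5 and 0 CPM in Ebf1-negative cells, and was detected in none of the TN cells. Both were thin, with detection in 12 and 10 of 64 Ebf1-positive cells. Foxo1, which acts beside Ebf1 on Rag and Il7r transcription, was detected in 38.9%, 31.8% and 58.3% of Ebf1-positive cells, against 13.6%, 21.1% and 14.3% of Ebf1-negative cells, yet its CPM overlapped because the Ebf1-negative sum of chip 5 stood at 170.8 CPM (limma adjusted p = 0.451). Pax5, the factor that completes commitment, was too low to test: reads were found in 5 of 64 Ebf1-positive and 3 of 88 Ebf1-negative cells. Tcf3, which encodes E2A, differed by 0.05 ± 0.55 on the log2(CPM + 1) scale (limma adjusted p = 0.986). Spib, a factor of B cells and plasmacytoid dendritic cells, was the member that stood lower without overlap, with 3.0, 7.5 and 8.9 CPM in Ebf1-positive cells, against 20.8, 102.7 and 21.2 CPM in Ebf1-negative cells.

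Of 12 tested V(D)J recombination genes, 2 rose, none fell, and 5 stood higher without overlap (5.19% over all tested genes). Rag1 had 175.2, 493 and 574 CPM in Ebf1-positive cells, against 20.2, 148.4 and 13.3 CPM in Ebf1-negative cells, and it was detected in 57.4% ± 8.5 of Ebf1-positive, 19.8% ± 17.1 of Ebf1-negative cells, with 1.41% ± 1.45 of TN cells (SD over 3 chips). It rose by limma (difference 3.30 ± 0.64, adjusted p = 0.0196). Rag2 had 255, 557 and 333 CPM in Ebf1-positive cells, against 65.8, 83.6 and 123.9 CPM in Ebf1-negative cells, without a call (limma adjusted p = 0.212). Dntt behaved as a gene of both sides: it was detected in 98.1% ± 3.2 of Ebf1-positive and 90.6% ± 10.7 of Ebf1-negative cells, against 30.6% ± 3.8 of TN cells. Its CPM of 5395, 5049 and 5178 in Ebf1-positive cells, against 4418, 2548 and 2619 in Ebf1-negative cells, was among the called differences (1.75 ± 0.33, limma adjusted p = 0.0189). Xrcc6, a subunit of the end-joining factor Ku, had a ratio of mean CPM of 1.76 and was not called (limma adjusted p = 0.212). The other 7 tested members of the list, mostly end-joining enzymes and chromatin proteins, overlapped between the sides.

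**Figure D3:**
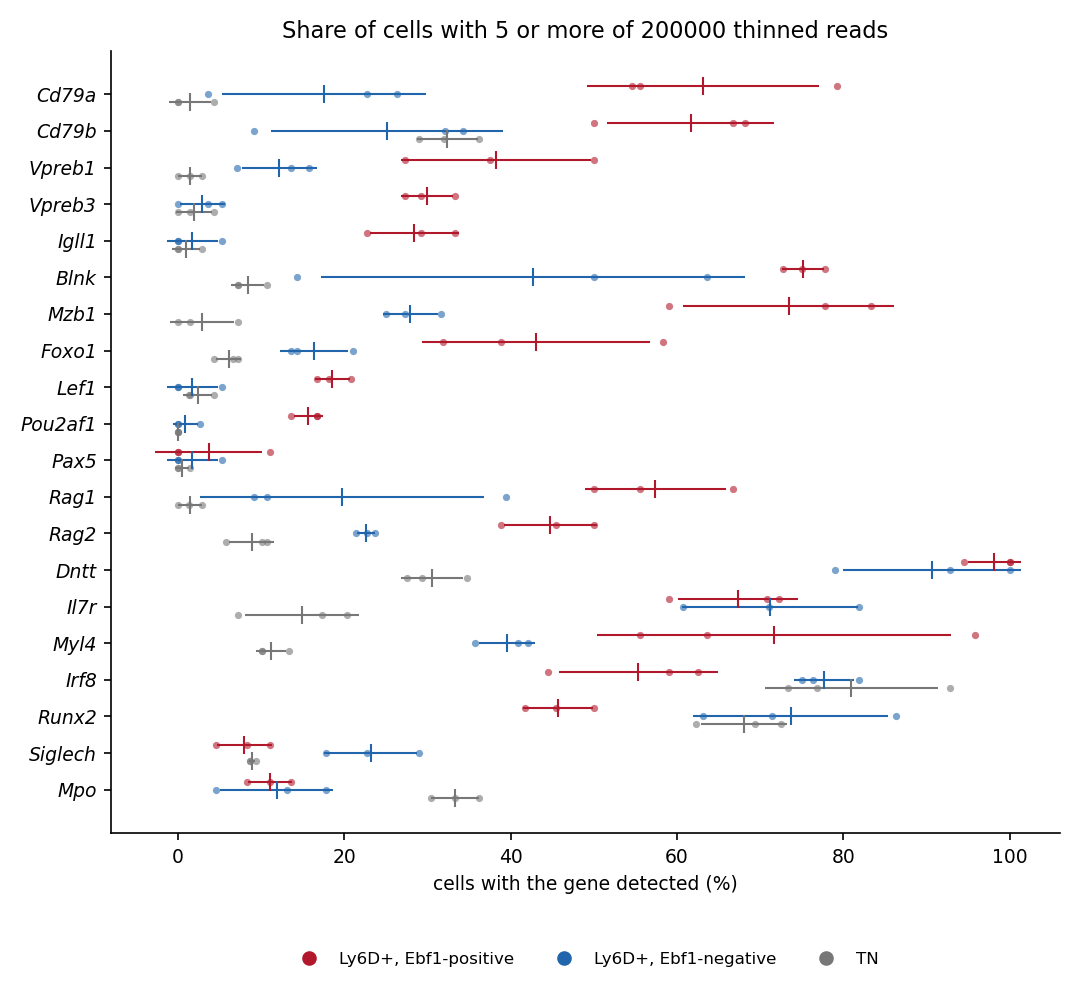
Share of cells in which a gene was detected (5 or more of 200000 thinned reads), with a small point for each chip, a tick for the mean and a bar for the SD of 3 chips, for Ebf1-positive Ly6D+, Ebf1-negative Ly6D+ and TN cells. Igll1, Vpreb3, Lef1 and Pou2af1 lie near 0 in both other sets, whereas Dntt and Il7r lie higher in both Ly6D+ sides than in TN cells, which were captured on other chips.

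Genes of interleukin 7 receptor signalling, on which early B cells of the mouse depend, did not differ as clearly. None of 13 tested members was called and 3 stood higher without overlap (Il2rg, Jak1 and Ccnd3), beside 5.19% over all tested genes. Il7r had 381, 916 and 1225 CPM in Ebf1-positive cells, against 388, 479 and 138.3 CPM in Ebf1-negative cells. The sides were level on chip 4 and apart on chip 6, and detection was 67.4% ± 7.2 of Ebf1-positive and 71.2% ± 10.6 of Ebf1-negative cells (SD, n = 3 chips). Of 14 early lymphoid genes 2 rose, Gimap4 and Mzb1, and the median difference was −0.26, beside −0.12 over all tested genes. Gimap4, a GTPase of lymphocytes, had 1082, 1009 and 904 CPM in Ebf1-positive cells, against 369, 405 and 88.5 CPM in Ebf1-negative cells (difference 3.40 ± 0.59, limma adjusted p = 0.0102). Its relative Gimap6 had the smallest edgeR p of the genes that stood higher, with 1195, 1646 and 1495 CPM in Ebf1-positive cells, against 478, 786 and 659 CPM in Ebf1-negative cells (edgeR log2 fold change 1.19 ± 0.16, unadjusted p = 0.00036, adjusted p = 0.935). Flt3, the receptor of the transgenic ligand, had 699.8, 538 and 562 CPM in Ebf1-positive cells, against 532, 409 and 397 CPM in Ebf1-negative cells, which do not overlap but were not called (limma adjusted p = 0.712). Ly6d, on which all these cells were sorted, had 1979, 2689 and 2365 CPM in Ebf1-positive cells, against 3721, 2921 and 2674 CPM in Ebf1-negative cells. It stood lower on each chip with overlap between chips, and was not called (limma adjusted p = 0.877).

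Plasmacytoid dendritic cell genes stood lower in Ebf1-positive cells where they differed. Of 13 tested members 2 fell, Irf8 and Runx2, none rose, and 4 stood lower without overlap (also Siglech and Cox6a2), beside 6.34% over all tested genes. Irf8, a factor of dendritic cells and monocytes, had 381, 581 and 284 CPM in Ebf1-positive cells, against 998, 1200.4 and 877 CPM in Ebf1-negative cells (difference −2.65 ± 0.52, limma adjusted p = 0.023). It was detected in 55.3% ± 9.6 of Ebf1-positive and 77.7% ± 3.6 of Ebf1-negative cells, the second share being near the 81% ± 10.4 of TN cells (SD, n = 3 chips). Runx2, which plasmacytoid dendritic cells use to leave the bone marrow, had 424, 316 and 248 CPM in Ebf1-positive cells, against 673, 829 and 670.1 CPM in Ebf1-negative cells (difference −2.57 ± 0.55, limma adjusted p = 0.0496). Siglech, the surface lectin that defines plasmacytoid dendritic cells, had 86.1, 9.2 and 22.5 CPM in Ebf1-positive cells, against 310.4, 216 and 112.1 CPM in Ebf1-negative cells, and was detected in 5 of 64 and 21 of 88 cells. The summed level of all 16 list genes was 1774, 2122 and 1366 CPM in Ebf1-positive cells, against 3399, 4181 and 2613 CPM in Ebf1-negative cells. Whether a share of cells with plasmacytoid features moves these values was not tested.

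Genes of other lineages gave few differences. No member was called among 11 myeloid progenitor, 8 conventional dendritic and MHC class II, 6 T, NK and innate lymphoid, 7 stem cell and 4 erythroid, megakaryocyte and mast cell genes tested. Mpo, the myeloperoxidase of myeloid granules, had 33.4, 52.5 and 38.4 CPM in Ebf1-positive cells, against 15.7, 51.1 and 56.1 CPM in Ebf1-negative cells, and Elane had no read in any Ly6D+ cell. Cebpa, a myeloid factor on the list of genes reported as repressed by Ebf1, had reads in 0 of 64 Ebf1-positive cells, a count that allows up to 4.69% of cells with reads, and in 7 of 88 Ebf1-negative cells. Id2, an inhibitor of E proteins on the same list, had 44.7, 125.7 and 279 CPM in Ebf1-positive cells, against 136.5, 194.3 and 445 CPM in Ebf1-negative cells, lower on each chip but with overlap (limma adjusted p = 0.632). Among stem cell genes, Kit had 117.1, 160.6 and 286 CPM in Ebf1-positive cells, against 48.7, 73.9 and 115.3 CPM in Ebf1-negative cells, and Meis1 166.6, 316 and 250.1 CPM, against 61.4, 119.7 and 89 CPM. Both stood higher without overlap, without a call (limma adjusted p = 0.783 and 0.605).

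Cell-cycle genes leaned toward the Ebf1-negative side to a degree that differed between chips. None of 20 G1/S or 20 G2/M genes was called, 4 and 5 stood lower without overlap, and their median differences were −0.86 and −1.18. Over all tested genes 6.34% stood lower without overlap and the median difference was −0.12. A cell held 4.67, 4.73 and 2.29 detected G2/M members in Ebf1-positive cells of chips 4, 5 and 6, against 5.95, 5.42 and 8.18 in Ebf1-negative cells (exact two-sided sign-flip permutation p = 0.25). Most of that difference lay on chip 6. For G1/S the counts were 8.67, 9.73 and 9.17 in Ebf1-positive cells, against 12.8, 8.84 and 12.1 in Ebf1-negative cells, with the opposite direction on chip 5. Detected genes of all kinds had the same directions by chip as the G1/S counts (2637, 2505 and 2619, against 2991, 2404 and 2929). Whether that difference moves the member counts was not tested. Mcm7, a subunit of the replicative helicase, had 396, 409 and 388 CPM in Ebf1-positive cells, against 671, 546 and 515 CPM in Ebf1-negative cells (limma adjusted p = 0.252). Bcl2, a survival gene, was detected in 34.6% ± 15.6 of Ebf1-positive and 70.7% ± 15.8 of Ebf1-negative cells (SD, n = 3 chips), without a call (limma adjusted p = 0.0992). Interferon response genes differed by chip more than by side, with 6.44, 6.73 and 2.38 members per Ebf1-positive cell and 6.50, 5.89 and 1.43 per Ebf1-negative cell. Usp18, the interferon-induced ISG15 protease, had 779, 2093 and 219.6 CPM in Ebf1-positive cells, against 288, 1008 and 73.9 CPM in Ebf1-negative cells (edgeR unadjusted p = 0.00053, adjusted p = 0.935). The lists of glycolysis, Bcl2 family, Notch, immediate-early and mature B cell genes held no call.

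**Figure D4:**
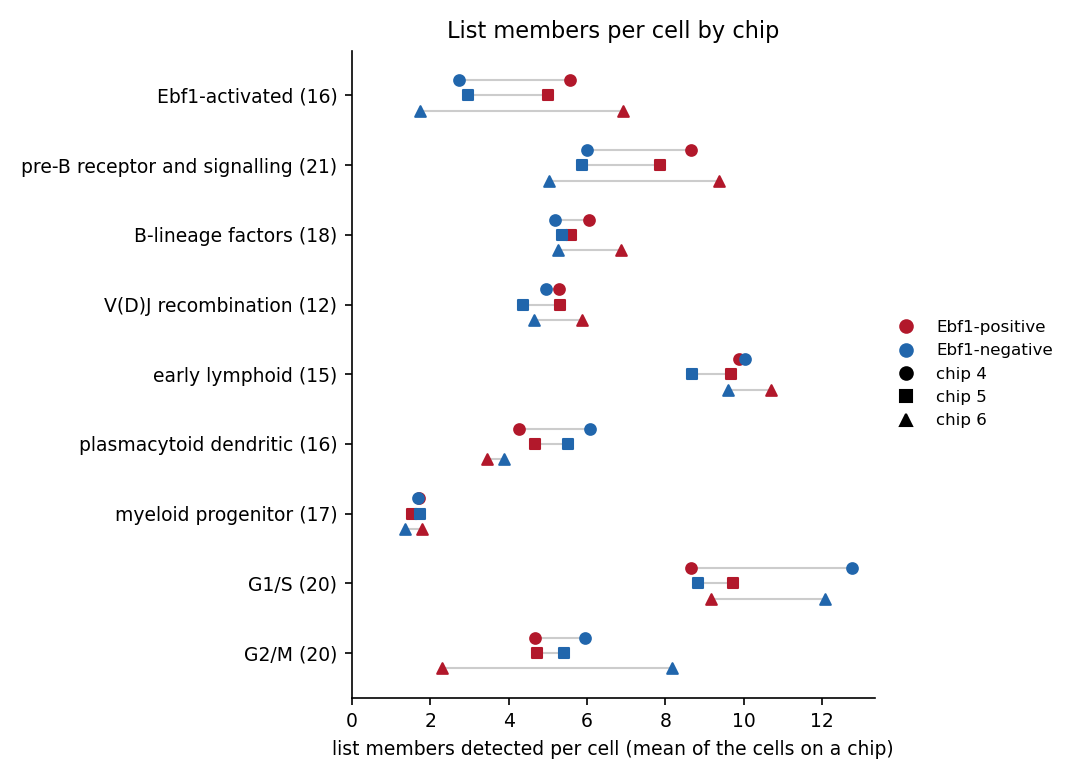
Mean number of detected list members per cell for 9 gene lists, with the number of list genes in the table in parentheses, Ebf1-positive cells in red, Ebf1-negative cells in blue, and 1 symbol for each chip joined by a grey line. Ebf1-positive cells hold more Ebf1-activated and pre-B-cell receptor members on all 3 chips, and fewer G2/M members, most of all on chip 6.

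Outside the lists, Cecr2, a chromatin remodelling subunit, had 469, 569 and 573 CPM in Ebf1-positive cells, against 29.7, 115.4 and 30.5 CPM in Ebf1-negative cells (difference 2.74 ± 0.56, limma adjusted p = 0.029; edgeR adjusted p = 0.935). Sdc4, the cell-surface proteoglycan syndecan-4, had 489.7, 658 and 561 CPM in Ebf1-positive cells, against 107.6, 289 and 86.2 CPM in Ebf1-negative cells (difference 3.17 ± 0.60, limma adjusted p = 0.0189). Rsph9, a radial spoke protein of cilia, and Gfra2, a receptor for the growth factor neurturin, were detected in 20 and 14 of 64 Ebf1-positive cells, against 3 and 2 of 88 Ebf1-negative cells. Atp1b3, a sodium pump subunit, had 593, 738 and 602 CPM in Ebf1-positive cells, against 170.3, 224 and 217 CPM in Ebf1-negative cells, and Btg2, an antiproliferative gene, 2385, 2571 and 2058 CPM, against 1405, 1236 and 853 CPM. These 2 genes are named for their small edgeR p (0.00036 and 0.00061) and passed neither edgeR (adjusted p = 0.935 for both) nor limma (adjusted p = 0.178 and 0.404). In the other direction Tbc1d9b, of a family of Rab GTPase regulators, had 38.3, 41.9 and 9.5 CPM in Ebf1-positive cells, against 200.6, 199.3 and 51.7 CPM in Ebf1-negative cells. Mpeg1, the perforin-2 gene of phagocytes, had 35.9, 116.1 and 68.4 CPM in Ebf1-positive cells, against 107.3, 316 and 258 CPM in Ebf1-negative cells, and neither was called (limma adjusted p = 0.632 and 0.526).

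Within the Ebf1-positive cells, detection of the B-lineage genes overlapped in part. Dntt was detected in 63 of the 64 cells, Blnk in 48, Cd79a in 41, Rag1 in 37, Vpreb1 in 24, Vpreb3 in 19, Igll1 in 18 and Lef1 in 12. All 18 cells with Igll1, all 19 with Vpreb3, all 12 with Lef1 and all 10 with Pou2af1 also held Cd79a, which is found in 41 of 64. All 12 cells with Lef1 held Igll1 and Vpreb3. Other pairs were not contained in each other: Blnk was found in 34 of the 41 Cd79a cells, Cd79a in 31 of the 37 Rag1 cells and 22 of the 24 Vpreb1 cells, and Vpreb3 in 15 of the 18 Igll1 cells. The 1 cell without Dntt held Blnk, Cd79a, Rag1, Igll1 and Vpreb3. Rag1 was detected in 16 of the 18 cells with Igll1 and in 21 of the 46 cells without it. Irf8 ran the other way, with detection in 5 of the 18 Igll1 cells and in 31 of the 46 others, and Runx2 was found in 5 of 18 and 24 of 46. Mki67, a marker of cycling cells, was detected in 8 of the 18 Igll1 cells and in 16 of the 46 others. These counts pool the chips and describe cells of 1 library each, so they carry no test. Among Ebf1-negative cells, all 21 Siglech cells held both Irf8 and Runx2, which were found in 47 and 42 of the 67 cells without Siglech. Rag1, Blnk and Mzb1, the last also a gene of plasmacytoid dendritic cells, went different ways with Siglech. Rag1 was detected in 1 of the 21 Siglech cells, against 19 of the 67 others, whereas Blnk was found in 13 of the 21 against 24 of the 67, and Mzb1 in 10 against 15. Rag2 was detected in 5 of the 21 against 15 of the 67, and Cd79b in 6 against 18, which are similar shares.

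**Figure D5:**
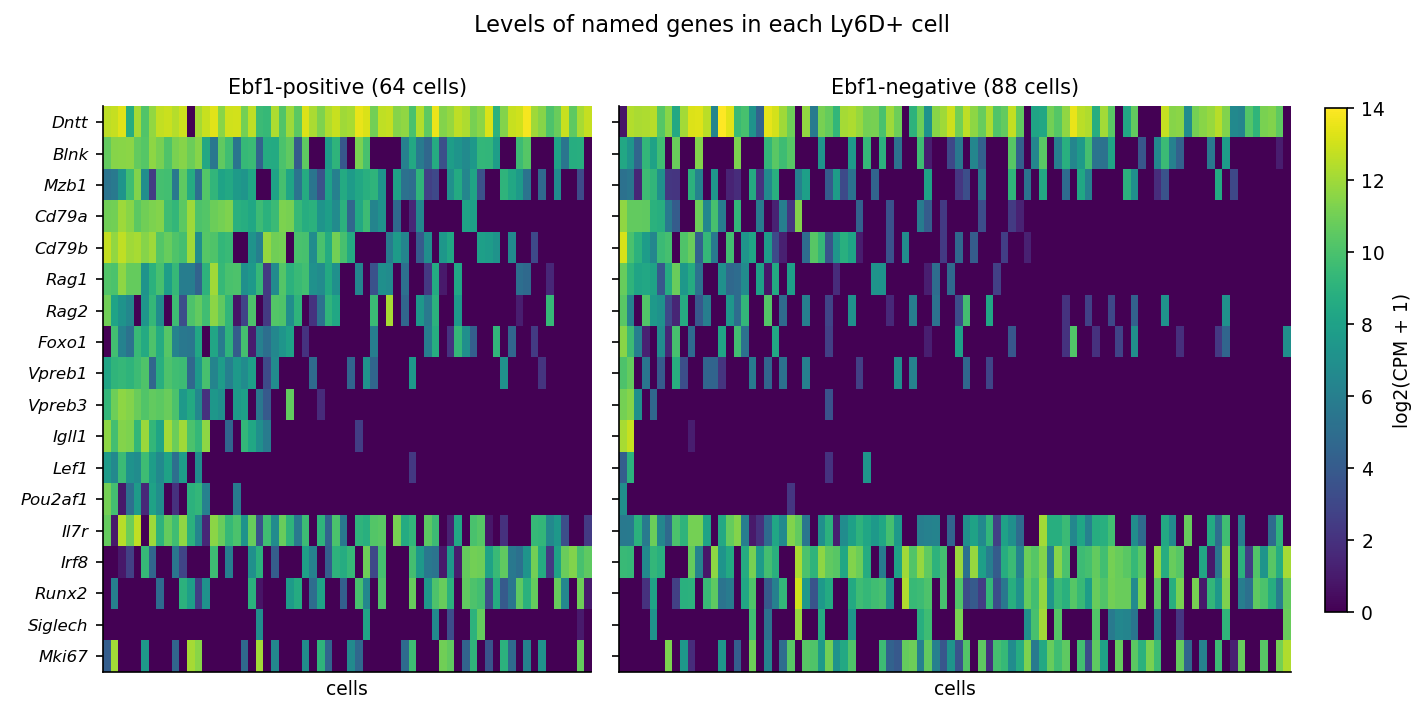
Level of 18 genes in each Ly6D+ cell as log2(CPM + 1), with 1 column for each cell, 64 Ebf1-positive cells on the left and 88 Ebf1-negative cells on the right, each ordered by the summed level of Cd79a, Cd79b, Rag1, Vpreb1, Vpreb3, Igll1, Lef1 and Pou2af1. On the Ebf1-positive side the cells in which Igll1 or Lef1 was detected also held Cd79a, and Dntt is high on both sides.

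A pair of Ebf1-negative cells on chip 5, singled out after their values were seen, held nearly all Igll1 and Vpreb3 reads of that side. Together they held 99.99% of its Igll1 reads on chip 5, 99.3% of its Vpreb3 reads, 84.1% of its Vpreb1 reads and 49.2% of its Cd79a reads. The first held 13 Ebf1 reads, below the limit, with 4652 CPM of Igll1 and 3267 CPM of Cd79a. The second held no Ebf1 read, with 7128 CPM of Igll1 and 1602 CPM of Cd79a. Cd79a without Ebf1 above the limit was not limited to this pair: it was detected in 16 of 88 Ebf1-negative cells, and 10 of these 16 held Rag1, against 10 of the 72 others.

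Among the TN cells 8 of 213 passed the Ebf1 limit, with a median of 569 CPM and up to 9472 CPM. Of these 8, Igll1, Vpreb3 and Rag1 were each detected in 2, Cd79b in 4 and Dntt in 5. Cd79a was detected in 41 of 64 Ebf1-positive Ly6D+ cells, against 2 of the 8 TN cells. With 8 cells on 3 chips the difference was not tested.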

How the data were processed

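Single-cell mRNA was amplified over its full length on Fluidigm C1 chips and made into Nextera XT libraries, per the labels' protocols. The deposited values are unnormalised counts of reads, with no molecular identifiers. The submitters' processing notes name build mm9 and R 3.2.0. The sources used here do not give the aligner, counting program, strand setting or treatment of doublets. Reads of antisense partners can therefore not be told apart, and no doublet caller was run. Symbols came from a RefSeq table (GRCm38.p6) for 23334 of 23427 genes.

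For each chip, reads were added up over its Ebf1-positive and over its Ebf1-negative cells, and the 6 sums were tested with edgeR 4.0.16 (R 4.3.3, quasi-likelihood, TMM, filterByExpr, chip as a block, Benjamini-Hochberg adjusted p under 0.05). CPM values of sums use TMM-scaled totals. Limma-trend (limma 3.58.1) on chip means of log2(CPM + 1) per cell, and DESeq2 1.42.0, were alternatives. The log2(CPM + 1) differences are not fold changes of the summed reads. A cell without reads counts as 0, so they also move with the share of cells that hold a gene. They can be larger or smaller than the edgeR log2 fold change. Irf8 differed by −2.65, against −1.35 with edgeR, and Cecr2 by 2.74, against 3.52. Both sides of a chip share a capture run by the labels, which is why chip is a block. Deviations of same-chip sums from their side's mean correlated at 0.0083, 0.035 and 0.013 across genes. Which animals each chip received is not labelled, so a p-value reflects differences among 3 chips that could be technical.

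Values per cell came from cells thinned to 200000 reads (lowest cell 267852) and were compared over chips with an exact sign-flip permutation test. Genes were named by rule: the 5 with the smallest edgeR p in each direction, provided that all chips had that direction and that the higher side showed the gene in at least 20% of its cells, and a fixed set (Cd79a, Rag1, Igll1, Vpreb3, Vpreb1, Pax5, Il7r, Dntt, Rag2, Flt3, Ly6d, Foxo1, Pou2af1, Blnk, Myl4, Id2, Irf8, Mpo, Siglech and Kit). A gene that the rule names is not reported here. The members, lists and tests were chosen with earlier results of these data known. On simulated counts of this design (5 simulations, 10408 to 10424 genes) edgeR recovered 0% of 2-fold, 9.98% of 4-fold and 26.8% of 8-fold changes. Limma on simulated chip means of 10654 genes recovered 24.8%, 69.6% and 97.6% of shifts by 1, 2 and 3. Each simulation drew its noise from the model and the variances that the same test had fitted. The data thus met that test's assumptions by construction, and whether the shares hold for the real counts was not tested.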

Additional observations from a re-analysis of the deposited data

How the results depend on the processing

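With edgeR the count of called genes was 0 in the paired fit and stayed 0 with no replicate block (495 genes at an unadjusted p under 0.05, against 461), with RLE or no scaling, with no filter, with thinned cells, at each other Ebf1 limit, without shallow cells, without the unnamed row Entrez100861531 (an alternative added after seeing the data) and without each chip in turn. DESeq2 called 415 and limma-trend 15. Settings of limma-trend added after seeing the data called 10 genes at 100 CPM, 15 at any Ebf1 read and 15 without cells under 1500 detected genes, of which 10, 12 and 14 are among the 15. Without chips 4, 5 and 6 the counts were 14, 0 and 2. Of the named genes' edgeR fold changes, those that turned were Mpo (0.19, against −0.050 with limma-trend, −0.11 at any Ebf1 read and −0.25 to 0.54 without each chip) and Myl4 (0.48, against −0.14 to 0.87 without each chip). The log2 difference in reads per cell was 0.048 and ranged from −0.019 to 0.101 without each chip. Differences in list members per cell that turned were near 0: mature B and plasma cell genes (−0.00032 at 1 thinned read and −0.044 at 100 CPM), immediate-early genes (−0.023 at 100 CPM) and Notch genes (0.086 at 1 thinned read). The cause was not tested. In simulations edgeR recovered 0% of 2-fold, 9.98% of 4-fold and 26.8% of 8-fold changes of the sums. Limma-trend recovered 24.8%, 69.6% and 97.6% of shifts by 1, 2 and 3 of chip means of log2(CPM + 1). The scales are unlike, so these shares cannot be set against each other.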
